A study of Mus musculus with 5 samples.

Results

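Gata6 chromatin occupancy was examined at 4 gene loci of the epidermal growth factor (EGF) receptor system in the mouse pancreas: Egfr, Erbb2, Erbb3 and Tgfa. The loci were defined as fixed windows of the mm9 genome build, and every Gata6 peak whose midpoint lay in a window was taken as a member. This gave 13 of the 7737 peaks in the deposited list (0.168%), in windows that make up 0.0265% of the autosomes and X. All 4 windows held at least 2 peaks. Among same-sized stretches of these chromosomes, at least 2 peaks were found in 18.6% for Egfr and 8.80% for Erbb2. The shares were 7.95% for Erbb3 and 12.5% for Tgfa. The data came from ChIP-seq, in which DNA bound by a protein is recovered with an antibody, here specific to Gata6, and sequenced. The samples were pancreata of wild-type C57BL/6 mice, with 2 libraries from mice aged 5 weeks, 2 from mice aged 14 weeks and 1 input library pooled from all input replicates. Wild-type animals were the only genotype, and no treatment was given in the labels. The processed result was a single list of positions without height, score or value per library, so no spread between animals, no sequencing depth and no difference between ages could be computed. The list holds no expression values, and the tissue label could not be checked against pancreatic markers.

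Gata6 belongs to the GATA family of zinc-finger proteins, which recognise GATA motifs in DNA, and it is needed for acinar cells of the pancreas to keep their identity. The EGF receptor family consists of membrane tyrosine kinases that pair when a ligand binds and then signal through PI3K and other pathways. Egfr binds Tgfa and other EGF-like ligands. Erbb2 has no known soluble ligand of its own and acts as a partner in receptor pairs, and Erbb3 has little kinase activity, binds neuregulins and recruits PI3K through its tail. Tgfa is made as a membrane precursor and released by cleavage. In the pancreas, signalling through Egfr is known for its part in the conversion of acinar cells to duct-like cells.

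The promoter sequences of the genes that define the loci are shown because Gata6 recognises GATA letters and these are the start regions of the genes themselves. RefSeq promoters of GRCm38.p6, from 250 bases before to 50 bases after the annotated start, were matched by symbol for 3 of the 4 genes. They are printed 5′ to 3′ on the strand of the gene, and capitals mark CpG dinucleotides.
Egfr: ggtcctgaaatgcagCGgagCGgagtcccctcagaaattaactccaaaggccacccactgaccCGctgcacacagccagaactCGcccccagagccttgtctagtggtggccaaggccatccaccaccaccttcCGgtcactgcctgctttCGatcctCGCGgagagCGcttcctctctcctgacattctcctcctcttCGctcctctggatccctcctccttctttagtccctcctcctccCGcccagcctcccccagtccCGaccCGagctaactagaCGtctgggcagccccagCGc
Erbb2: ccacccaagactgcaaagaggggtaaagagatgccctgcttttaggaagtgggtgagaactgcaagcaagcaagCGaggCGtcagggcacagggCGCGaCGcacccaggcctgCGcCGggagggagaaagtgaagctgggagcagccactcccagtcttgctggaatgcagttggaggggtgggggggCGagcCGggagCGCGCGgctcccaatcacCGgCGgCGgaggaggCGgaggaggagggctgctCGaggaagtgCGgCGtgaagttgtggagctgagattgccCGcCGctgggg
Tgfa: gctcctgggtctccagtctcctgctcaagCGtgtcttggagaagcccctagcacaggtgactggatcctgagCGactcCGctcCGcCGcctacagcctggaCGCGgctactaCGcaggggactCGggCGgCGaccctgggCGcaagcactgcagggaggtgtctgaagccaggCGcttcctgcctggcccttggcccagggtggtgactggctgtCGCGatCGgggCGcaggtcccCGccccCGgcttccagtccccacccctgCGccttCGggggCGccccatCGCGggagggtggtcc
The Egfr promoter had 62.3% G and C bases and 15 CpG dinucleotides. The Erbb2 promoter had 66.0% and 21, and the Tgfa promoter had 70.7% and 24. The median over all 32851 promoters of the same length was 52.7% and 7 CpG. As many CpG or fewer were found in 67.0% of all promoters for Egfr, 76.9% for Erbb2 and 81.6% for Tgfa. For G and C bases these shares were 76.9%, 84.4% and 91.8%. The 4 letters GATA, read on both strands, occurred in 0 of these 3 promoters and in 57.9% of all promoters. The longer form AGATAA, and its variants with T in the first or G in the last place, each of which contains GATA, occurred in none of them on either strand, and in 29.8% of all promoters. This says only that the letters are not in these 300 bases. These sequences belong to a different build from the peaks, no mm9 annotation or sequence was used here, and it was therefore not determined whether a peak covers a promoter, an exon, an intron or a stretch between genes.

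The receptor locus with the most peaks was Erbb2. Its window, chr11:98220001-98350000 in band qD (130 kb), held 5 peaks, or 38.5 per Mb with an exact 95% Poisson interval of 12.5 to 89.8, an interval that covers counting error only and treats peaks as independent. To set this count against the genome, the 19 autosomes and X were cut into adjoining tiles of the window's size, and 0.803% of the 20291 tiles (163) held 5 peaks or more, while 77.9% held none. The Erbb2 window was therefore in the sparse upper tail of the genome, where the mean tile had 0.381 peaks and the highest had 16. On chromosome 11 alone, 16 of 937 tiles (1.71%) held as many. The windows were drawn with the list known, so these shares describe the loci and are not tests.

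The Erbb2 peaks fell into a group of 3 near the start of the window and a pair of single peaks further on. The first peak, chr11:98238228-98239705, was 1478 bp wide. The second, chr11:98241367-98242159, was 793 bp wide, and its midpoint lay 2.80 kb from that of the first. The third, chr11:98246181-98247336, measured 1156 bp and followed after another 5.00 kb. Each of these 3 peaks thus had a neighbour within 10 kb, as 28.9% of all peaks on the autosomes and X did. The fourth peak, chr11:98280040-98281024, stood 33.8 kb from the third and was 985 bp wide. The fifth, chr11:98307437-98310084, was 28.2 kb further and measured 2648 bp. It was the widest of the 13 members, and only 32 of the 7737 peaks in the list were wider. The first 4 peaks lay within 50 kb of each other, and 6.52% of all peaks on these chromosomes had at least 4 midpoints, their own included, in the 50 kb that follow them.

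All 5 Erbb2 peaks were wider than the list median of 728 bp. Together they covered 7060 bp, or 5.43% of the window, against 0.239% of the autosomes and X covered by the whole list. In 0.172% of tiles of this size the peaks summed to as much width. The nearest peaks outside the window were chr11:98063826-98064480, 155.8 kb before it, and chr11:98543374-98544380, 193.9 kb after it. Gaps between midpoints as long as those on either side of the Erbb2 peaks were common in the list, at 33.1% and 27.0% of all gaps. Moving both limits outwards by 50 kb left the count at 5, a count reached by 2.56% of tiles of that larger size. Moving both limits inwards by 20 kb left 4 peaks, a count reached by 0.836% of tiles of that smaller size. In RefSeq gene order of GRCm38.p6, Erbb2 stands between Pgap3, an enzyme that remodels GPI anchors, and Mien1, with Pnmt, the enzyme that makes adrenaline, before Pgap3 and Grb7, an adaptor protein that binds activated receptors, after Mien1. Without positions of these genes on mm9, no peak was assigned to Erbb2 rather than to a neighbour.

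**Figure D1:**
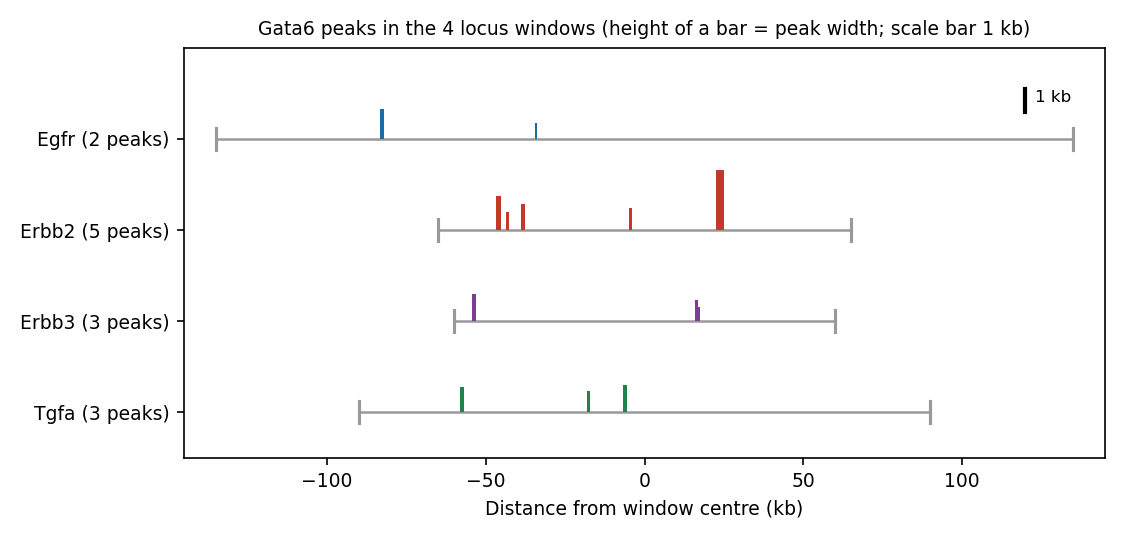
Gata6 peaks in the 4 locus windows, with distance from the window centre in kb on the horizontal axis, each grey line spanning 1 window and each coloured bar 1 peak whose height and breadth are its width (black scale bar, 1 kb in height). Erbb2 shows 5 peaks including the widest (2648 bp), Erbb3 a nearly touching pair, Tgfa 3 peaks left of the centre and Egfr 2 peaks in the left part of the longest window.

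Erbb3 carried 3 peaks, a nearly touching pair among them. Its window, chr10:127950001-128070000 in band qD3 (120 kb), had a density of 25 peaks per Mb (exact 95% Poisson interval 5.16 to 73.1). As many peaks or more were found in 3.44% of 21981 tiles of this size, and 79.1% of tiles were empty. The first peak, chr10:127955670-127956848, was 1179 bp wide and stood apart from the other 2 by 70.1 kb. The second, chr10:128025853-128026797, was 945 bp wide, and the third, chr10:128026803-128027406, was 604 bp wide, the narrowest member. The edges of this pair were separated by 5 bp. Among 7713 pairs of neighbouring peaks in the list, 7 (0.0908%) had edges within 5 bp of each other and 259 (3.358%) within 500 bp. Whether the pair stands for 1 enriched stretch that was listed in 2 pieces cannot be told from positions alone. With edges within 500 bp merged throughout the list, the Erbb3 window held 2 peaks, and the share of tiles with as many was 7.69%.

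The Erbb3 count also depended on where the window began. The first member lay 6.26 kb inside the limit, while a peak of 629 bp at chr10:127941562-127942190 lay 8.12 kb outside it. Behind that peak came chr10:127939091-127939934 (844 bp) and chr10:127930270-127931890 (1621 bp), so that a window widened by 50 kb on each side held 6 peaks, a count reached by 1.28% of tiles of that larger size. These 3 outside peaks were not counted as members. The 3 members covered 2728 bp, or 2.27% of the window, and 2.15% of tiles had as much summed width. In gene order, Erbb3 is preceded by Pa2g4, which encodes a protein known to bind Erbb3, and by the ribosomal protein gene Rpl41. It is followed by Rps26, also a ribosomal protein gene, and by Ikzf4, a zinc-finger transcription factor.

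Egfr had the longest window and the fewest peaks. The window, chr11:16600001-16870000 in band qA2 (270 kb), held 2 peaks, or 7.41 per Mb (exact 95% Poisson interval 0.897 to 26.8). Among 9765 tiles of this size, 18.6% had at least 2 peaks and 65.2% had none, so this count was common in the genome. On chromosome 11 itself, 161 of 451 tiles (35.7%) held as many. The first peak, chr11:16651542-16652851, was 1310 bp wide, and 794 peaks of the list were wider. The second, chr11:16700407-16701110, was 704 bp wide, below the list median. Their midpoints were 48.6 kb apart, both lay in the left part of the window, and the last 168.9 kb of the window had no peak. The 2 peaks covered 2014 bp, or 0.746% of the window, and 10.3% of tiles had as much summed width.

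Few other peaks lay around the Egfr window. The previous peak on the chromosome, chr11:12160140-12160712, lay 4.49 Mb before the first Egfr peak, a distance reached by 60 of 7713 gaps between neighbouring peaks (0.778%), where the median gap was 79.1 kb. The next peak, chr11:17111289-17112368, followed the second by 411 kb. In the 2 Mb centred on the Egfr window there were 3 peaks, 2 of them the members. The same 2 Mb around the other windows held 25 peaks at Erbb2, 24 at Erbb3 and 18 at Tgfa, against a median of 4 (interquartile range 1 to 9) in 1308 tiles of 2 Mb. At least as many as at Erbb2 were found in 1.99% of such tiles, at Erbb3 in 2.22% and at Tgfa in 6.35%, while 58.2% had as many as Egfr or more. Outside the windows, peak density in these 2 Mb was 0.578 per Mb at Egfr, 10.7 at Erbb2, 11.2 at Erbb3 and 8.24 at Tgfa, where the autosomes and X had 2.93. Peaks were thus frequent both in and around 3 of the loci, and at Egfr the 2 members stood in a stretch with few others. In gene order, Egfr lies between Sec61g, a subunit of the channel that passes new proteins into the endoplasmic reticulum, and Fbxo48, with Vstm2a before Sec61g and Plek after Fbxo48.

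**Figure D2:**
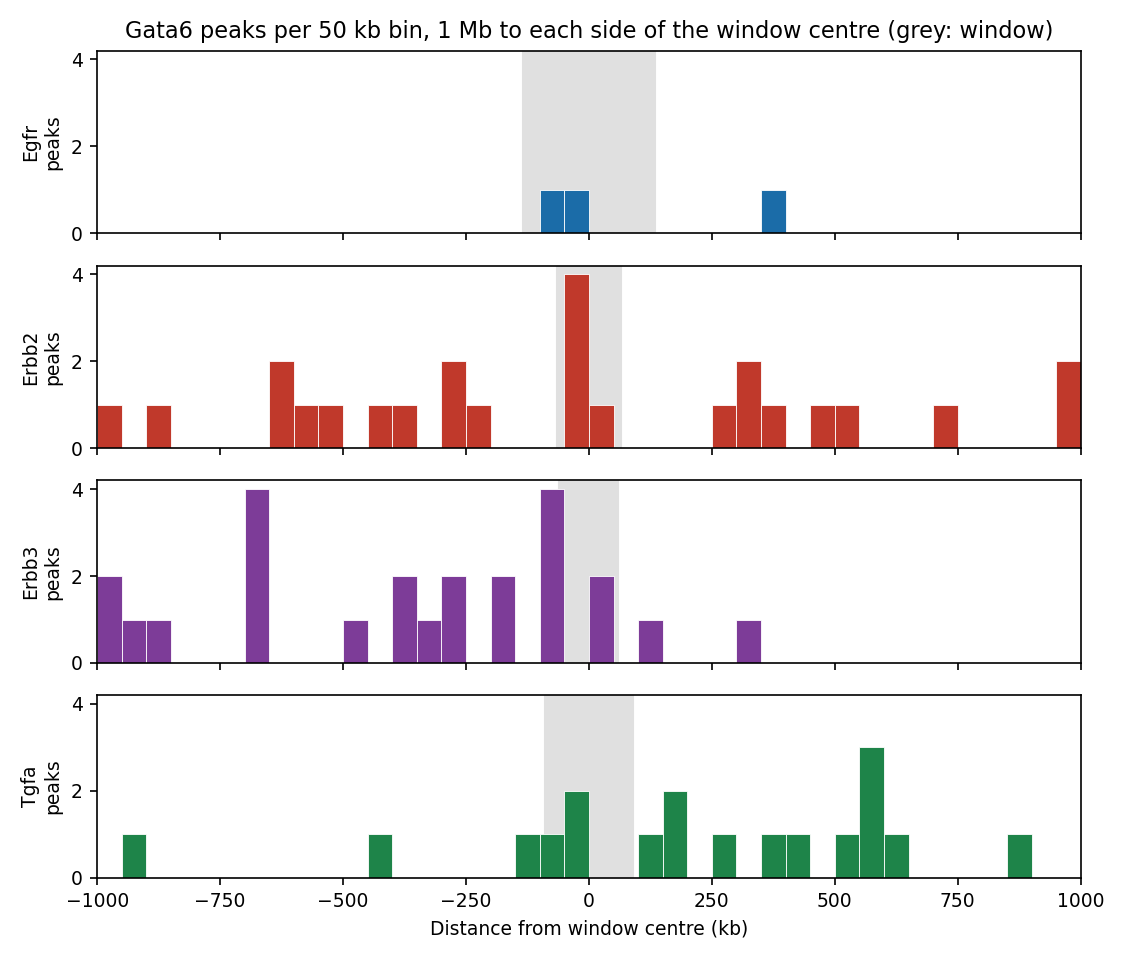
Number of Gata6 peaks per 50 kb bin (vertical axis) by distance from the window centre in kb (horizontal axis), for 1 Mb to each side of each locus, with the window in grey. The Egfr panel has 3 peaks in all, against 25 at Erbb2, 24 at Erbb3 and 18 at Tgfa.

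Tgfa, the ligand among the 4, carried 3 peaks of similar width. Its window, chr6:86100001-86280000 in band qD1 (180 kb), had 16.7 peaks per Mb (exact 95% Poisson interval 3.44 to 48.7). Of 14650 tiles of this size, 6.23% held 3 peaks or more and 72.4% held none. The first peak, chr6:86131982-86133104, was 1123 bp wide. The second, chr6:86171914-86172842, came 39.8 kb later and was 929 bp wide. The third, chr6:86183252-86184463, followed after 11.5 kb and was 1212 bp wide. All 3 were wider than the list median, none had a neighbour within 10 kb, and the second and the third made the closest pair. They covered 3264 bp, or 1.81% of the window, a sum reached in 2.80% of tiles. The last 95.5 kb of the window had no peak. The nearest peaks outside were chr6:86079677-86080362 (686 bp), 19.98 kb before the window, and chr6:86315255-86315638 (384 bp), 35.4 kb after it. In gene order, Tgfa follows Figla, a transcription factor of the oocyte, and Add2, a protein of the membrane skeleton, and is followed by Fam136a and Snrpg, a component of the splicing machinery.

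**Figure D3:**
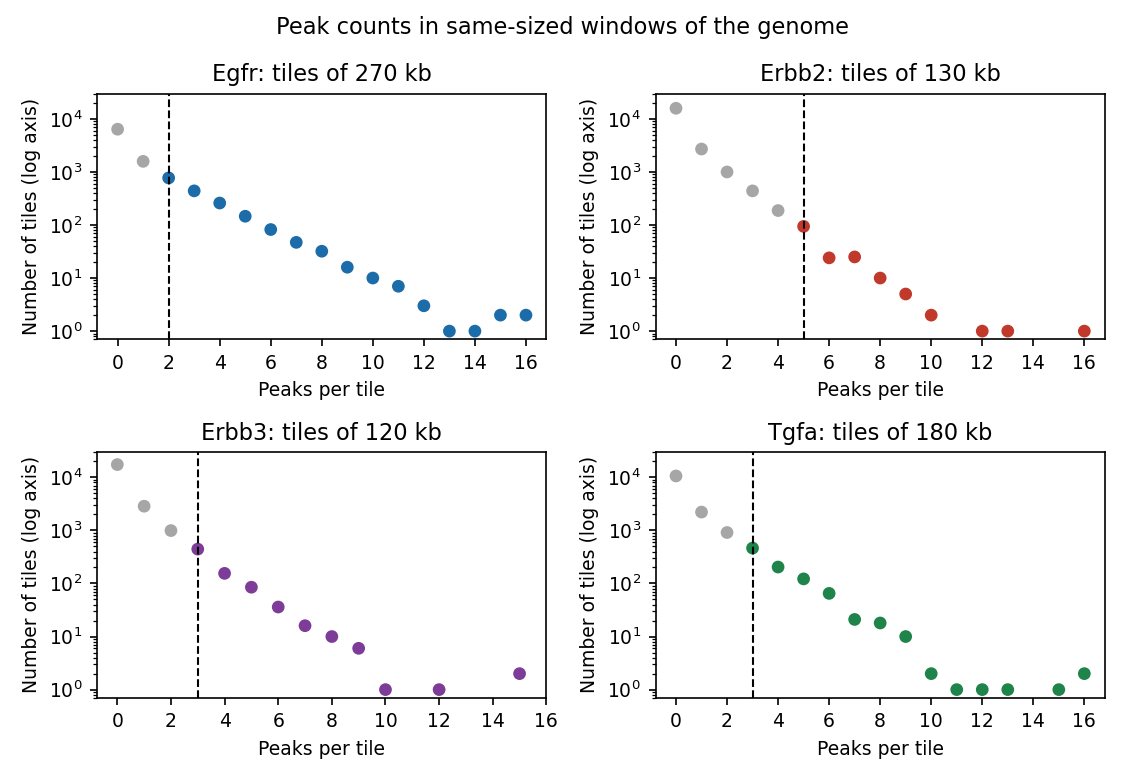
Number of genome tiles (vertical log axis) by number of Gata6 peaks per tile (horizontal axis), for tiles of the size of each locus window on the 19 autosomes and X, with the dashed line at the count of the locus and coloured points at or above it. The coloured points make up 18.6% of tiles for Egfr, 0.803% for Erbb2, 3.44% for Erbb3 and 6.23% for Tgfa.

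Set side by side, the density of peaks in the windows as drawn was highest at Erbb2, followed by Erbb3, Tgfa and Egfr. In the windows as drawn, the higher density of Erbb3 than of Tgfa rested on counting its nearly touching pair as 2 peaks. With edges within 500 bp merged, Erbb3 held 2 peaks in 120 kb and Tgfa 3 in 180 kb, which is the same density. The share of tiles with as many was then 7.69% for Erbb3 and 5.85% for Tgfa. With windows widened by 50 kb on each side, Erbb3 came first with 27.3 peaks per Mb, followed by Erbb2 with 21.7, Tgfa with 17.9 and Egfr with 5.41. Each count rests on 2 to 5 peaks in the windows as drawn, and differences between the loci were not tested. Over all 4 windows, 0.7 Mb in sum, the density was 18.6 peaks per Mb, where the autosomes and X had 2.93. The peaks covered 2.15% of the windows, where the whole list covered 0.239% of the autosomes and X. These pooled values join unlike windows, from 7.41 peaks per Mb at Egfr to 38.5 at Erbb2. The median distance from a member to its nearest peak was 11.5 kb, where the median over the list was 31.4 kb. A neighbour within 10 kb was present for 5 of the 13 members (38.5%), 3 at Erbb2 and 2 at Erbb3, against 28.9% in the list. The 2 at Erbb3 were the pair with edges 5 bp apart, which may be 1 stretch listed in 2 pieces. Apart from each other, their nearest peaks lay 70.1 kb before and 114.9 kb after them. Both the median distance and the share of members count this pair as 2 peaks with a close neighbour.

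The members were mostly of more than middling width. They measured 604 to 2648 bp with a median of 1123 bp, where the list had a median of 728 bp and an interquartile range of 533 to 996 bp. Of the 13, 11 were wider than the list median, as 49.9% of the list were. At least 1 kb was reached by 7 of 13, and by 24.7% of the list. The 2 members below the list median were the second Egfr peak and the third Erbb3 peak. The widest members of the loci measured 1310 bp at Egfr, 2648 bp at Erbb2, 1179 bp at Erbb3 and 1212 bp at Tgfa, and the Erbb2 one stood clear of the others.

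**Figure D4:**
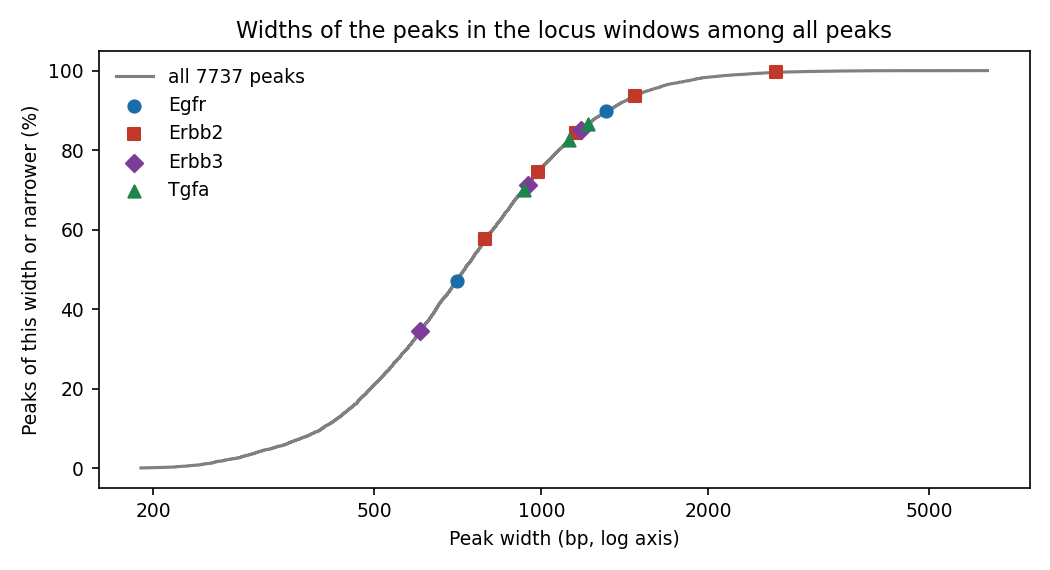
Share of all 7737 Gata6 peaks that are of a given width or narrower (vertical axis, percent; grey line) by peak width in bp (horizontal log axis), with the 13 members as symbols by locus. All but 2 of the members lie above the list median of 728 bp, and the widest, at Erbb2, has 2648 bp.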

How the data were processed

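Gata6 ChIP-seq libraries and a pooled input library were measured in mouse pancreas and grouped by their titles. The authors deposited 1 list of peaks with chromosome, start and end (base pairs of mm9, per the submitters' processing notes) and no other value. These notes name CASAVA 1.8 and BWA 0.5.9-r16 but not what each did. The list's own name carries the letters FDR and a 1, which may stand for a false discovery rate limit, but its scale is not explained. Not given in the sources used here were the peak caller, its settings and any pooling, and depth is unknown. Reads that cannot be placed uniquely, or a caller that splits broad enrichment, would change counts of peaks per locus.

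Positions, with 0-based starts in the list, are printed 1-based. A peak belonged to the window that held its midpoint. All 4 loci and all their peaks are named. The windows, members and lists were chosen with earlier results of these data known, and no test was run. The 19 autosomes and X were cut into tiles from the first base, without the last incomplete tile. Chromosome lengths came from GenomeInfoDb 1.38.1 and bands from circlize 0.4.16 (R 4.3.3). Counting used pandas 2.3.3 and numpy 2.4.6 in Python 3.11.15, intervals scipy 1.17.1 and plots matplotlib 3.10.9. Counting was tested on simulated lists. Gene order was taken from RefSeq on GRCm38.p6, with none of its positions. Other genes of the pathway and motifs in peaks needed mm9 annotation or sequence and were not analysed here.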

Additional observations from a re-analysis of the deposited data

How the results depend on the processing

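Among 72 alternative values, 43 stayed within the tolerance (counts and covered lengths within 1.5 times, shares of tiles within the Wilson 95% interval of the reported share) and 29 moved. Every tile share stayed lowest for Erbb2 except with windows widened by 50 kb, where Erbb3 came below it. That setting gave 24.8% for Egfr, 2.56% for Erbb2, 1.28% for Erbb3 and 3.92% for Tgfa, with 6 peaks at Erbb3 and 5 at Tgfa. Peaks at or above the median width alone gave 1 peak of 1310 bp and 21.3% for Egfr, 0.241% for Erbb2, 3.52% for Erbb3 and 2.45% for Tgfa. Merging edges within 500 bp gave 0.606% for Erbb2, 7.69% for Erbb3 and 5.85% for Tgfa. Narrowing windows by 20 kb on each side gave 16.03% for Egfr, 4.88% for Erbb3 and 4.39% for Tgfa. With wider peaks alone, with merging and with narrowing, the share was thus higher for Erbb3 than for Tgfa, the reverse of the reported order. Tiles of the same chromosome gave 35.7% for Egfr, 1.71% for Erbb2 and 5.54% for Tgfa. Autosomes alone gave 19.8% for Egfr and 6.64% for Tgfa. Tiles of the same band stain gave 22.0% for Egfr, 0.963% for Erbb2, 4.59% for Erbb3 and 7.72% for Tgfa. Tiles with at least 1 peak, an alternative chosen after seeing the data together with tiles offset by part of a window, gave 53.5% for Egfr, 3.64% for Erbb2, 16.4% for Erbb3 and 22.6% for Tgfa. Window size, tile set or peak set differs there by construction, and no other cause was tested. No library could be left out of a single list, and unknown depth limits how many weaker sites were seen. No paired analysis was possible because peaks have no value in any single library.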

Other observations

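The peaks around the windows also differed between loci. The widest peak within 1 Mb of the Erbb3 window centre, outside the window, was chr10:127832505-127835725 with 3221 bp, wider than 99.8% of the list or equal to it, at 115.9 kb from the window. At Erbb2 the widest was chr11:98610952-98613330 with 2379 bp, 262.1 kb from the window. The widest near Tgfa had 1549 bp and lay at chr6:86476063-86477611, and the only one near Egfr had 1080 bp. Of the 40 bins of 50 kb in these 2 Mb, 37 were empty at Egfr, 22 at Erbb2, 27 at Erbb3 and 26 at Tgfa.

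The list is not sorted by position but consists of 94 sorted runs, and what this order means is not stated with it. The 13 members were spread from line 178, the second Tgfa peak, to line 5937, the third Erbb3 peak. Of the 13, 7 lay among the first 3868 of the 7737 lines, near the share of the list that these lines make up. The later lines held all 3 Erbb3 peaks (4345, and 5769 and 5937 for the nearly touching pair). They also held the second Egfr peak (4050), the second Erbb2 peak (5773) and the third Tgfa peak (5672). Among the earlier ones were the first Egfr peak (644) and the fourth Erbb2 peak (981). Over all peaks the median width was 787.5 bp in the first 3868 lines and 666 bp in the rest.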
